A study of Homo sapiens with 18 samples.

Results

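Fc receptors are the proteins through which immune cells bind the constant part of antibodies. Their transcripts were followed in 3 human acute myeloid leukaemia (AML) cell lines. The group holds 9 genes, FCGR1A, FCGR2A, FCGR2B, FCGR3A, FCER1G, FCER1A, FCER2, FCGRT and FCAR, taken by Ensembl gene ID from a deposited table of 40184 genes, and all 9 were found there. Each line was exposed for 24 h to 500 nM RMC-4550 or to its vehicle DMSO, with 3 libraries in each of the 6 groups. RMC-4550 is an allosteric inhibitor of the phosphatase SHP2 (PTPN11), which passes signals from receptor tyrosine kinases to RAS. Molm-14 and MV4-11 were labelled FLT3-ITD, an internal tandem duplication of the receptor kinase FLT3, and SKNO-1 was labelled with the KIT mutation N822K. SKNO-1 was grown with the cytokine GM-CSF at 10 ng/mL in both of its groups and the other lines without it, so that line, mutation and growth factor cannot be told apart. Each line is a single established culture, and the labels call the replicates biological without saying how they were separated, so p-values measure the spread between these libraries.

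Fc receptors differ in the antibody class they bind and in the signal they give. FCGR1A (CD64) is the high-affinity receptor for IgG. FCGR2A (CD32A) carries an activating tyrosine motif in its own tail, whereas FCGR2B (CD32B) carries an inhibitory motif that recruits phosphatases. FCER1G is the common gamma chain, the activating subunit with which FCGR1A, FCGR3A, FCAR and the IgE receptor chain FCER1A assemble. FCER2 (CD23) is the low-affinity IgE receptor, a lectin found mainly on B cells and activated monocytes. FCGRT is the neonatal Fc receptor, a relative of MHC class I that pairs with beta-2 microglobulin and returns IgG and albumin from endosomes to the circulation. In myeloid cells these receptors drive phagocytosis and the oxidative burst, and their levels change as the cells mature.

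The genes lie on chromosome 1 (6 genes) and chromosome 19 (3 genes). On GRCh38 with GENCODE 29, FCGR1A lies at chr1:149782671-149792518, FCGR2A at chr1:161505430-161524013, FCGR3A at chr1:161541759-161550737 and FCGR2B at chr1:161663147-161678654. FCER1G lies at chr1:161215234-161220699 and FCER1A at chr1:159289714-159308224. On chromosome 19, FCER2 lies at chr19:7688758-7702146, FCGRT at chr19:49506816-49526333 and FCAR at chr19:54874248-54890472. FCGR2A, FCGR2B and FCGR3A sit in a run of 5 genes over 173225 bases, together with the copies FCGR2C and FCGR3B. FCGR1A has the copies FCGR1BP and FCGR1CP elsewhere on chromosome 1.

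The promoters of FCGR1A, FCGR2A and FCGR2B, which bind IgG at the cell surface, are shown because FCGR2A and FCGR2B moved one way with RMC-4550 in Molm-14 and FCGR1A the other. Each sequence is RefSeq's (GRCh38.p14, plus strand), from 250 bases before a RefSeq transcription start up to that start or to the GENCODE gene start, whichever came first. FCGR1A is chr1:149782444-149782670, FCGR2A is chr1:161505207-161505429 and FCGR2B is chr1:161662893-161663142. Capitals mark TTCNNNGAA, the palindrome that STAT factors bind, and GAGGAA, a form of the core bound by PU.1 (SPI1), which reads TTCCTC where it lies on the other strand.
FCGR1A: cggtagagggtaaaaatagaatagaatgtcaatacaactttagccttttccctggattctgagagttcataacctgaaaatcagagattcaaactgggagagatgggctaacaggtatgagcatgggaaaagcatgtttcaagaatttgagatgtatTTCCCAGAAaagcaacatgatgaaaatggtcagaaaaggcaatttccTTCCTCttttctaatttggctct
FCGR2A: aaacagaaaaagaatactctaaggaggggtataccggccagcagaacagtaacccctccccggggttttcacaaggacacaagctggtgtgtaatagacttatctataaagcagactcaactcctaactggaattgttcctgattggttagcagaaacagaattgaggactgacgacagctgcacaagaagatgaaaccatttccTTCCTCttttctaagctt
FCGR2B: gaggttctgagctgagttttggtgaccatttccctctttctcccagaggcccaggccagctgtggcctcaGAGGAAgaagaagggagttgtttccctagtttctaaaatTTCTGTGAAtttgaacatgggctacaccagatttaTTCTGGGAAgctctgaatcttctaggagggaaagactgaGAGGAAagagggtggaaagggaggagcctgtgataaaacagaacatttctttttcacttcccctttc

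FCGR1A and FCGR2A shared the 20-base run ATTTCCTTCCTCTTTTCTAA, which began 52 bases before the start in FCGR1A and 51 bases before it in FCGR2A. It was picked as the longest run that these 2 promoters share, so its count elsewhere is a description and no test. It occurred in 2 of 35116 RefSeq promoters (250 bases before to 50 after a start), those of these 2 genes, although their transcripts moved in opposite directions with RMC-4550. The copies FCGR1BP, FCGR1CP and FCGR2C had no promoter there under these names. FCGR1A held TTCNNNGAA once, 93 bases before its start, and FCGR2B held it at 141 and at 106 bases before the start shown here. FCGR2B has another RefSeq start, at position 161647243, and its window of the same length held no match to either motif. FCGR2A held no match to it in this window. The 2 motifs were searched on both strands and did not overlap in these sequences. Of the 8 genes of the group that had a promoter in the RefSeq table, 3 held TTCNNNGAA and 5 held GAGGAA in at least 1 promoter, against 7.66% and 27.9% of all promoters. A gene with several starts had several chances to match. A match is a description of the sequence and not a sign of binding.

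Libraries held 17434810 to 19959917 reads. Levels are in CPM, the usual read number scaled to library size, with the authors' scaling factors, which ran from 0.890 to 1.11. Reads of mitochondrial genes made up 5.07% to 7.02% of 14 libraries and 10.5% to 15.0% of the other 4, which were Molm-14 RMC-4550 replicate 2, MV4-11 DMSO replicates 1 and 3 and MV4-11 RMC-4550 replicate 1. These 4 libraries stood apart from the rest of their groups, and receptor results that moved with them are given both ways. Genes reaching 10 CPM in a line were looked up in the other lines. Of the 9261 in Molm-14, 0 dropped below 1% of their value in MV4-11 and 69 in SKNO-1. Of the 9416 in MV4-11, 61 did so in Molm-14 and 29 in SKNO-1. Of the 9244 in SKNO-1, 123 did so in Molm-14 and 13 in MV4-11. Whether MV4-11 libraries held some Molm-14 RNA was not tested, and MV4-11 values are not corrected for it. Of 8 myeloid markers, 7 reached a mean of 1 CPM in all 6 groups, and the monocyte marker CD14 did not. Their summed level ran from 547 to 566 CPM in Molm-14 with DMSO and from 678 to 742 CPM with RMC-4550. It ran from 794 to 835 and from 902 to 999 CPM in MV4-11, and from 1147 to 1216 and from 1393 to 1536 CPM in SKNO-1. The sum rose without a general rise of its markers. Molm-14 had 2 of the 7 tested markers called higher and 1 lower, with a median log2 change of -0.06. For MV4-11, 2 of 7 were called higher and 0 lower (median 0.46). The SKNO-1 counts were also 2 higher and 0 lower of 7 (median 0.32). What part this rise of the sum had in the receptor results was not tested. Some lymphocyte markers were detected and moved with the drug. B cell markers summed to 16.8 to 19.5 CPM in Molm-14 with DMSO and to 10.0 to 13.6 CPM with RMC-4550, where 1 of the 3 tested was called higher and 1 lower. Their sum was 18.1 to 21.3 and 21.3 to 21.8 CPM in MV4-11 (0 of 3 called) and 17.5 to 18.9 and 18.6 to 21.7 CPM in SKNO-1 (1 of 4 called, higher), with MS4A1 or CR2 at 0 reads in each group. Of 6 NK cell markers only NCAM1 and NKG7 reached a mean of 1 CPM, and KLRF1 or NCR1 was at 0 reads in each group. The NK cell sum was 176 to 182 CPM with DMSO and 131 to 147 CPM with RMC-4550 in Molm-14, 88.5 to 105 and 83.6 to 88.0 CPM in MV4-11, and 34.1 to 38.5 and 38.7 to 49.7 CPM in SKNO-1. Both Molm-14 and SKNO-1 had 1 of these 2 genes called higher and 1 lower, and MV4-11 had neither called. The T cell genes CD3D and CD3E were both at 0 reads in 4 of the 6 groups, and TRAC was the only T cell marker tested. T cell markers summed to 11.4 to 13.7 CPM with DMSO and to 2.09 to 3.65 CPM with RMC-4550 in Molm-14, to 3.63 to 5.86 and 0.863 to 1.06 CPM in MV4-11, and to at most 0.323 CPM in SKNO-1. TRAC was called lower by limma in Molm-14 (-2.15) and in MV4-11 (-2.22). The part of these markers in the receptor results was not tested.

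Without drug, Molm-14 expressed the IgG receptors FCGR1A, FCGR2A and FCGR2B but almost no FCER1G or FCER2, whereas MV4-11 and SKNO-1 expressed both of these. SKNO-1 in turn had little of the inhibitory receptor FCGR2B. FCGRT was at a similar mean level in the 3 lines. FCGR3A, FCAR and FCER1A were at or near the limit of detection everywhere.

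FCER1G was at 0.889, 1.04 and 1.06 CPM in the Molm-14 DMSO libraries, or 16 to 19 reads each. It was at 55.6, 33.3 and 63.4 CPM in MV4-11 and at 45.1, 46.1 and 45.6 CPM in SKNO-1. The groups were far apart, and the 3 SKNO-1 libraries lay within the wide range of the MV4-11 ones. The fitted difference was 5.59 ± 0.24 on the log2 scale (estimate ± SE, limma adjusted p = 1.32e-11), 48.1-fold, for MV4-11 over Molm-14, and 5.48 ± 0.24 (limma adjusted p = 6.38e-12), 44.7-fold, for SKNO-1 over Molm-14. MV4-11 and SKNO-1 did not differ past the threshold for FCER1G (log2 difference -0.10, 95% interval -0.61 to 0.40, limma adjusted p = 0.74).

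FCER2 followed the same order of lines. Molm-14 DMSO libraries had 0.389, 0.750 and 0.836 CPM, MV4-11 had 25.6, 15.2 and 28.96 CPM, and SKNO-1 had 19.7, 21.8 and 22.2 CPM. No MV4-11 or SKNO-1 library came near the Molm-14 range. The limma difference from Molm-14 was 5.10 ± 0.32 in MV4-11 (adjusted p = 1.81e-09), 34.3-fold, and 5.02 ± 0.32 in SKNO-1 (adjusted p = 7.62e-10), 32.4-fold. MV4-11 and SKNO-1 differed by -0.08 with an interval of -0.77 to 0.60.

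FCGR2B gave a different order, highest in MV4-11 and lowest in SKNO-1. Its DMSO libraries were at 105, 89.96 and 104.8 CPM in MV4-11, at 72.7, 71.7 and 73.8 CPM in Molm-14 and at 12.5, 11.1 and 13.4 CPM in SKNO-1. None of these ranges overlapped. By limma, SKNO-1 was 5.91-fold below Molm-14 (adjusted p = 3.18e-12) and 8.10-fold below MV4-11 (adjusted p = 2.43e-12), and MV4-11 was 1.37-fold above Molm-14 (adjusted p = 0.00192). FCGR2A, its activating counterpart, was within 44.5 to 64.2 CPM in all 9 DMSO libraries. It was 1.25-fold higher in MV4-11 than in Molm-14 (limma adjusted p = 0.00807), and Molm-14 and SKNO-1 did not differ past the threshold (log2 difference 0.03, interval -0.16 to 0.23). Its 1.22-fold lower level in SKNO-1 than in MV4-11 (limma adjusted p = 0.0199) was no longer called with the mitochondrial share as a covariate (adjusted p = 0.13) or without MV4-11 DMSO replicate 3 (adjusted p = 0.0845) or SKNO-1 DMSO replicate 1 or 2.

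Per kilobase of exon, which allows genes to be compared, the ratio of FCGR2A to FCGR2B in DMSO was 0.842 ± 0.075 in Molm-14 and 0.764 ± 0.054 in MV4-11 (mean ± SD, n = 3). In SKNO-1 it was 5.09 ± 0.33. By these lengths the activating receptor had the higher level only in SKNO-1 among the 3 DMSO groups. The common gamma chain FCER1G was at 0.154 ± 0.010 times the level of FCGR1A per kilobase in Molm-14, at 5.43 ± 1.11 times in MV4-11 and at 6.28 ± 0.36 times in SKNO-1. Ranked by level per kilobase, FCGR2B was the highest of the 9 in Molm-14 (10.9 ± 0.16 CPM per kb) and FCER1G the highest in MV4-11 (52.7 ± 16.2) and in SKNO-1 (47.3 ± 0.54).

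**Figure D1:**
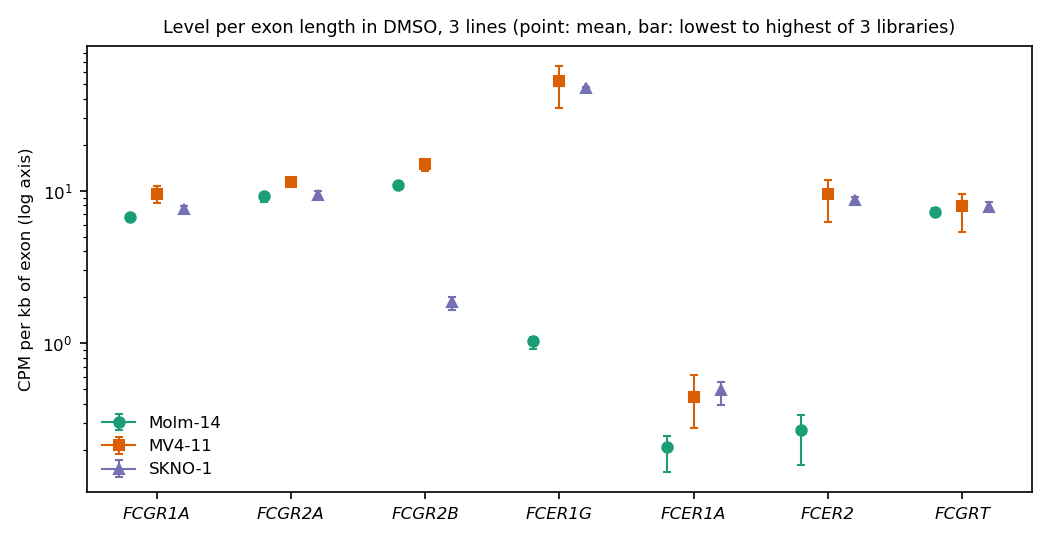
Level of 7 Fc receptor genes in DMSO in CPM per kilobase of exon (log axis), with the mean of each line as a point and its lowest and highest library as a bar. FCGR2B is low in SKNO-1 and FCER1G and FCER2 are low in Molm-14. FCGR3A and FCAR, with at most 5 reads in any library, are not drawn.

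FCGR1A and FCGRT also differed little between lines. FCGR1A was at 19.4, 20.6 and 20.3 CPM in Molm-14, at 28.9, 25.0 and 32.1 CPM in MV4-11 and at 23.9, 22.4 and 21.7 CPM in SKNO-1. MV4-11 was called above Molm-14 (log2 difference 0.50 ± 0.15, limma adjusted p = 0.0108), a call that was lost with the mitochondrial share as a covariate (0.24, adjusted p = 0.0727), without the 4 libraries of high share (0.31, adjusted p = 0.0794) and without MV4-11 DMSO replicate 3 (0.42, adjusted p = 0.0551). FCGRT was at 32.3, 29.3 and 29.8 CPM in Molm-14, at 37.2, 22.5 and 39.7 CPM in MV4-11 and at 31.4, 31.4 and 35.3 CPM in SKNO-1. The MV4-11 range enclosed both of the others, and no pair of lines differed past the threshold (limma adjusted p = 0.65 to 0.93). Without the 4 libraries of high mitochondrial share, when MV4-11 DMSO was replicate 2 alone, FCGRT was called lower in MV4-11 than in Molm-14 (-0.44, limma adjusted p = 0.00439) and higher in SKNO-1 than in MV4-11 (0.54, limma adjusted p = 0.00115). FCGR1A in SKNO-1 was not called against Molm-14 (0.17) or MV4-11 (-0.33, limma adjusted p = 0.0854), and the latter was called without MV4-11 DMSO replicate 2 (-0.43, adjusted p = 0.0352) or Molm-14 RMC-4550 replicate 1 or 2 (adjusted p = 0.0414 and 0.0475).

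In all, 5 of the 6 tested genes were called between MV4-11 and Molm-14, where 54.2% of all tested genes were called. For SKNO-1 against Molm-14 the count was 3 of 6 beside 65.3% of all genes, and for SKNO-1 against MV4-11 it was 2 of 6 beside 42.5%. These counts are near the background.

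The other 3 genes did not reach the 1 CPM needed for a test. FCGR3A, the CD16 receptor of NK cells and some monocytes, had 0 reads in 15 of 18 libraries and 1 read in each of the other 3. FCAR, the IgA receptor of neutrophils and monocytes, had at most 5 reads in a library and 16 in all. FCER1A had 1 to 23 reads per library, at most 1.06 CPM, and was highest in SKNO-1 with RMC-4550. Mast cell and basophil markers, among them KIT and the IgE receptor chain MS4A2, also had their highest sum there, 40.5 to 44.6 CPM, beside 34.2 to 37.7 CPM in the DMSO libraries of that line and at most 10.4 CPM in the other lines. Of the 3 markers of this list tested in SKNO-1, 0 were called with RMC-4550, beside 27.1% of all genes, and their median change was -0.14. MS4A2 itself changed by -0.14 (limma adjusted p = 0.86). The part of these markers in the FCER1A level was not tested. A gene with 3 reads in a library would be at no more than 0.192 CPM, and differences below that level were not detectable at this depth. Such limits cover counting error only.

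Under RMC-4550, FCGR2A and FCGR2B rose in all 3 lines, most in Molm-14. FCGRT rose in Molm-14 and SKNO-1, and FCGR1A fell in Molm-14 and, at the edge of the threshold, in SKNO-1. FCER1G rose in Molm-14 from a very low level. The number of genes called in Molm-14 was 4 higher and 1 lower of 5 tested, beside 46.7% of all genes called (21.5% higher, 25.2% lower). In MV4-11 it was 2 higher and 0 lower of 6, beside 13.9% (5.85% higher, 8.03% lower). FCGR1A and FCER1G were lower there at an unadjusted limma p under 0.05, and voom weights called 0 lower too. In SKNO-1 it was 3 higher and 1 lower of 6, beside 27.1% (10.8% higher, 16.2% lower). Of all SKNO-1 calls 40.0% were higher, a share that became 50.4% under median-ratio scaling. FCGR2A and FCGR2B were the 2 of 5 genes tested in every line that were called higher in all 3, against 3.11% of all genes tested in the 3 lines. The 3 treated and 3 control libraries did not overlap for 5 of 5 genes in Molm-14 (60% of all genes), for 2 of 6 in MV4-11 (24.6%) and for 6 of 6 in SKNO-1 (62%). In bulk libraries, fewer cells with a transcript and less of it per cell cannot be told apart.

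FCGR2B had the largest rise of the 5 genes tested in Molm-14. In Molm-14 it went from 72.7, 71.7 and 73.8 CPM with DMSO to 236.1, 280.9 and 243.2 CPM with RMC-4550. The lowest treated library was far above the highest control. The change was 1.80 ± 0.11 on the log2 scale (limma adjusted p = 5.45e-09), 3.47-fold. In MV4-11 it went from 105, 89.96 and 104.8 to 169.1, 141.5 and 145.6 CPM, without overlap, a 1.52-fold rise (0.60 ± 0.11, limma adjusted p = 0.00101). In SKNO-1, where it was low, it went from 12.5, 11.1 and 13.4 to 14.9, 18.1 and 17.0 CPM. These groups also did not overlap (1.35-fold, 0.43 ± 0.11, limma adjusted p = 0.00596). The 3 calls held under every alternative tried.

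FCGR2A, the activating receptor of the same gene cluster, rose less in each line. Molm-14 went from 51.1, 51.0 and 44.5 CPM to 110.7, 138.4 and 116.5 CPM, a 2.49-fold rise (1.31 ± 0.09, limma adjusted p = 3.06e-08). MV4-11 went from 59.5, 58.7 and 64.2 to 85.1, 74.6 and 81.9 CPM, 1.32-fold (0.40 ± 0.09, limma adjusted p = 0.00691). SKNO-1 went from 48.5, 48.3 and 52.9 to 61.4, 60.6 and 62.1 CPM, 1.23-fold (0.30 ± 0.09, limma adjusted p = 0.0225). Treated and control libraries did not overlap in any line. The MV4-11 call was lost in a fit of that line alone (adjusted p = 0.0922). The SKNO-1 call was lost with no filter on low values (adjusted p = 0.0735) and without SKNO-1 DMSO replicate 1 or 2 or any of the 3 SKNO-1 RMC-4550 libraries (adjusted p = 0.0508 to 0.0809).

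The ratio of FCGR2A to FCGR2B per kilobase, computed within each library, was 0.842 ± 0.075 with DMSO and 0.601 ± 0.015 with RMC-4550 in Molm-14 (mean ± SD, n = 3). The control ratios ran from 0.755 to 0.891 and the treated ones from 0.587 to 0.617, without overlap. In MV4-11 the mean moved from 0.764 to 0.665 and the ranges, 0.710 to 0.817 and 0.630 to 0.704, did not overlap either. In SKNO-1 it was 5.09 and 4.64, with ranges of 4.86 to 5.47 and 4.18 to 5.17 that did overlap.

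FCGR2A and FCGR2B share exon sequence with the copy FCGR2C, which arose from both, so reads could have been split between the 3 genes in a way the deposited values do not show. Of the 100-base windows in their transcripts, 6.74% in FCGR2A, 9.85% in FCGR2B and 27.5% in FCGR2C also occurred in another gene. For 50-base windows the shares were 16.7%, 12.5% and 44.9%. The read length is not given in the sources used here. FCGR2C itself went from 33.2, 37.5 and 35.6 to 144.4, 176.2 and 133.6 CPM in Molm-14, a 4.25-fold rise (limma adjusted p = 1.56e-09). It rose 1.92-fold in MV4-11 (limma adjusted p = 2.20e-05) and 1.46-fold in SKNO-1 (limma adjusted p = 0.00125). The sum of the 3 genes does not depend on how counted reads were divided among them. Whether reads that match several genes were counted at all is not given in the sources used here. This sum went from 157 ± 3.17 to 527 ± 59.6 CPM in Molm-14, 3.35-fold. The same sum went from 206 ± 12.5 to 319 ± 26.7 CPM in MV4-11, 1.55-fold, and from 75.0 ± 2.68 to 96.6 ± 1.03 CPM in SKNO-1, 1.29-fold. Treated and control sums did not overlap in any line.

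**Figure D2:**
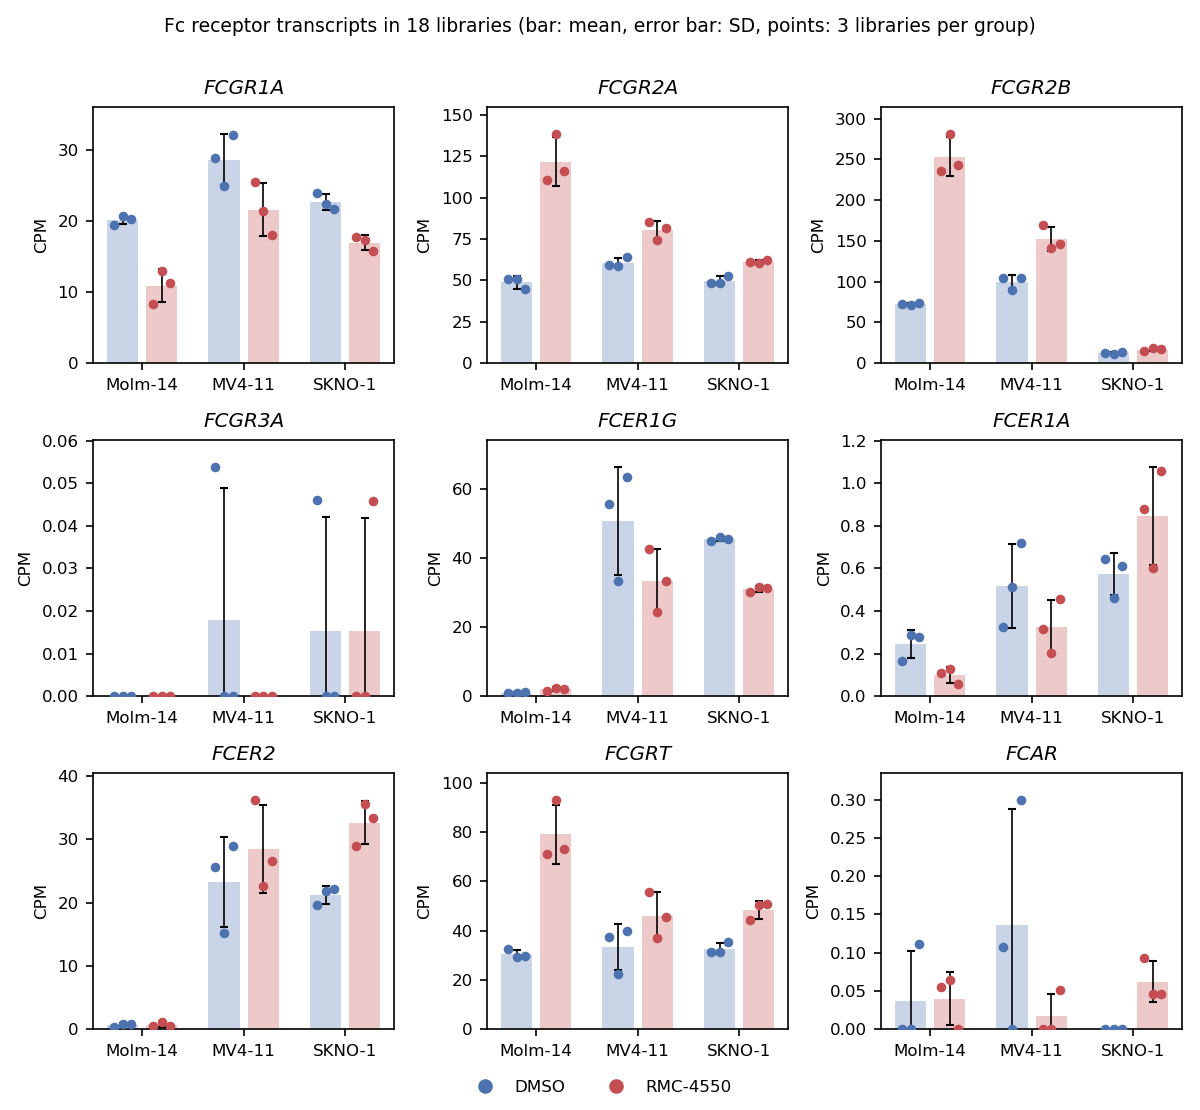
CPM of the 9 Fc receptor genes in each library, by line and treatment, with the group mean as a bar, its SD as an error bar and the 3 libraries as points. Each panel has its own linear axis from 0. FCGR2A and FCGR2B are higher with RMC-4550 in each line and FCGR1A is lower in Molm-14 and SKNO-1, while FCGR3A and FCAR stay below 0.3 CPM.

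FCGRT was the third gene to rise in Molm-14, from 32.3, 29.3 and 29.8 to 71.2, 92.9 and 73.2 CPM. All treated libraries lay above all controls (2.58-fold, 1.37 ± 0.19, limma adjusted p = 2.51e-05). In SKNO-1 it went from 31.4, 31.4 and 35.3 to 44.2, 50.4 and 50.7 CPM, again without overlap (1.48-fold, 0.57 ± 0.19, limma adjusted p = 0.0326). The SKNO-1 call was lost with no filter on low values (adjusted p = 0.0593) and without any 1 of SKNO-1 DMSO replicates 1, 2 or 3 or SKNO-1 RMC-4550 replicates 2 or 3 (adjusted p = 0.0520 to 0.0982). In MV4-11 it was at 37.2, 22.5 and 39.7 CPM with DMSO and at 55.8, 36.8 and 45.5 CPM with RMC-4550. These groups overlapped and the change was not called (0.50 ± 0.19, limma adjusted p = 0.0913). FCGRT in MV4-11 moved with the mitochondrial share. Replicate 2 with DMSO, at 22.5 CPM, had 5.87% mitochondrial reads, and its 2 companions had 12.7% and 14.6%. Among libraries under 10% the difference was 0.87 (1 DMSO and 2 RMC-4550 libraries), and among the others it was 0.54 (2 and 1). With the share as a covariate the change was 0.72 and was called (limma adjusted p = 7.90e-06). B2M, the partner of FCGRT, rose in Molm-14 (0.36 ± 0.08, limma adjusted p = 0.00129) and had changes of 0.15 in MV4-11 and 0.09 in SKNO-1 that were not called. B2M was picked out here after its values were seen.

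FCGR1A was the only gene of the group called lower in any line. In Molm-14 it fell from 19.4, 20.6 and 20.3 CPM to 8.36, 13.003 and 11.3 CPM. The groups did not overlap, and the change was -0.91 ± 0.15 (limma adjusted p = 0.000158), a 1.88-fold lower level. In SKNO-1 it was at 23.9, 22.4 and 21.7 CPM with DMSO and at 17.8, 17.3 and 15.8 CPM with RMC-4550, without overlap. The limma adjusted p was 0.0498 (-0.42 ± 0.15), and it passed 0.05 in 12 of 18 fits that each left out 1 library, including all 6 that left out a SKNO-1 library (0.0757 to 0.155). In MV4-11, 28.9, 25.0 and 32.1 CPM with DMSO overlapped 25.5, 21.4 and 18.02 CPM with RMC-4550. The change there was -0.41 ± 0.15 and not called (limma adjusted p = 0.0850), and it was called without MV4-11 DMSO replicate 2 (-0.51, adjusted p = 0.0382), MV4-11 RMC-4550 replicate 1 (-0.54, adjusted p = 0.0328), or Molm-14 RMC-4550 replicate 1 or 2.

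The copies of FCGR1A share more of its sequence, since 36.5% of its 100-base windows occurred in FCGR1BP (FCGR1B in GENCODE 29) or FCGR1CP. For 50-base windows the share was 55.4%. Both were low, with group means of at most 2.84 CPM. FCGR1BP was called lower in Molm-14 (-1.60 ± 0.28, limma adjusted p = 0.000284) and SKNO-1 (-1.53 ± 0.28, limma adjusted p = 0.000780), and FCGR1CP in Molm-14 (-1.25 ± 0.31, limma adjusted p = 0.00383). In MV4-11 the changes were -0.20 and -0.43 and not called, and that of FCGR1BP had the other sign, 0.35, without the 4 libraries of high mitochondrial share. The sum of the 3 genes was 25.4 ± 0.71 CPM with DMSO and 12.9 ± 2.77 CPM with RMC-4550 in Molm-14, and 24.9 ± 1.29 and 18.1 ± 0.94 CPM in SKNO-1, without overlap in either. In MV4-11 it was 32.3 ± 4.74 and 24.5 ± 4.36 CPM, with overlapping libraries. FCGR1A also overlaps the histone gene H2BC18 (HIST2H2BF) and an antisense RNA on the other strand. Whether the counting used strand is not given in the sources used here. H2BC18 averaged at most 2.97 CPM in any group.

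FCER1G, which holds FCGR1A at the cell surface, did not move with it in Molm-14. There it went from 0.889, 1.04 and 1.06 to 1.37, 2.37 and 2.21 CPM, or from 16 to 19 reads to 25 to 39 reads. The groups did not overlap, and the change was 0.94 ± 0.24 (limma adjusted p = 0.00439). It stood near the filter of 1 CPM, and it was not called with voom weights (adjusted p = 0.17) or after quantile normalization (0.59, adjusted p = 0.0755). Even after the rise, the Molm-14 libraries were below every MV4-11 and SKNO-1 library, the lowest of which was at 24.3 CPM.

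In SKNO-1, FCER1G was at 45.1, 46.1 and 45.6 CPM with DMSO and at 30.2, 31.5 and 31.5 CPM with RMC-4550. The SD was 0.525 and 0.756 CPM and the groups did not overlap. The shared estimate of the spread over the 6 groups did not call this difference (-0.55 ± 0.24, limma adjusted p = 0.10), whereas a fit of the SKNO-1 libraries alone did (adjusted p = 9.06e-06). In MV4-11 it was at 55.6, 33.3 and 63.4 CPM with DMSO and at 42.6, 24.3 and 33.4 CPM with RMC-4550. These groups overlapped (-0.59 ± 0.24, limma adjusted p = 0.12). The 3 libraries of MV4-11 with at least 10% mitochondrial reads had the 3 highest FCER1G levels. The difference was -0.23 among libraries under 10% and -0.48 among the others, and without MV4-11 DMSO replicate 2 it was -0.87 and called (limma adjusted p = 0.0131). It was also called without MV4-11 RMC-4550 replicate 1 (-0.78, adjusted p = 0.0494). With the mitochondrial share as a covariate the change was -0.32 and not called (limma adjusted p = 0.10).

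**Figure D3:**
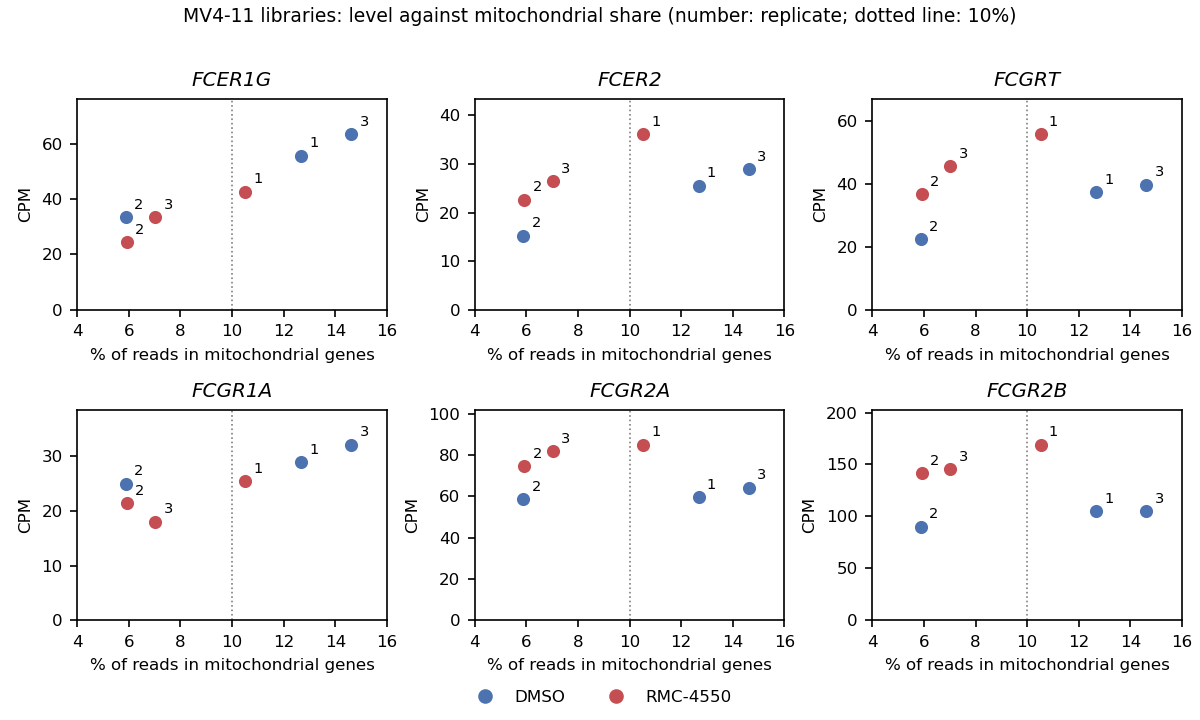
CPM of 6 Fc receptor genes in the 6 MV4-11 libraries against the percentage of reads in mitochondrial genes, with the replicate number beside each point and a dotted line at 10%. FCER1G is highest in the libraries to the right of the line in both treatments, and FCGR2A and FCGR2B are higher with RMC-4550 on both sides of it.

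All 6 receptors tested in MV4-11 kept the direction of their change on both sides of the 10% line. The libraries were 1 DMSO and 2 RMC-4550 under 10%, and 2 and 1 above it. FCGR2A differed by 0.41 among libraries under 10% and by 0.46 among the others, and FCGR2B by 0.67 and 0.69. FCER2 differed by 0.68 and 0.41 and FCGR1A by -0.35 and -0.26, in the same order. Without the 4 libraries of high mitochondrial share, MV4-11 DMSO was replicate 2 alone. The MV4-11 changes were then 0.41 for FCGR2A, 0.67 for FCGR2B and 0.87 for FCGRT. In Molm-14 all 5 tested genes kept the direction of their change. The SKNO-1 estimates stayed the same, since none of the 4 was from SKNO-1, and only their SE was smaller.

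FCER2 had too low a level for a test in Molm-14, at most 1.09 CPM. In SKNO-1 it was at 19.7, 21.8 and 22.2 CPM with DMSO and at 28.9, 35.6 and 33.4 CPM with RMC-4550. All treated libraries were above all controls, and the change was not called (0.62 ± 0.32, interval -0.06 to 1.30, limma adjusted p = 0.17). A fit of the SKNO-1 libraries alone called it (adjusted p = 0.000103), as did the mitochondrial share as a covariate (0.58, adjusted p = 0.0167). In MV4-11, 25.6, 15.2 and 28.96 CPM with DMSO overlapped 36.2, 22.6 and 26.5 CPM with RMC-4550 (0.31 ± 0.32, limma adjusted p = 0.59). The lowest library was again DMSO replicate 2, and adding the mitochondrial share to the model gave 0.67 and a call (limma adjusted p = 0.0146).

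**Figure D4:**
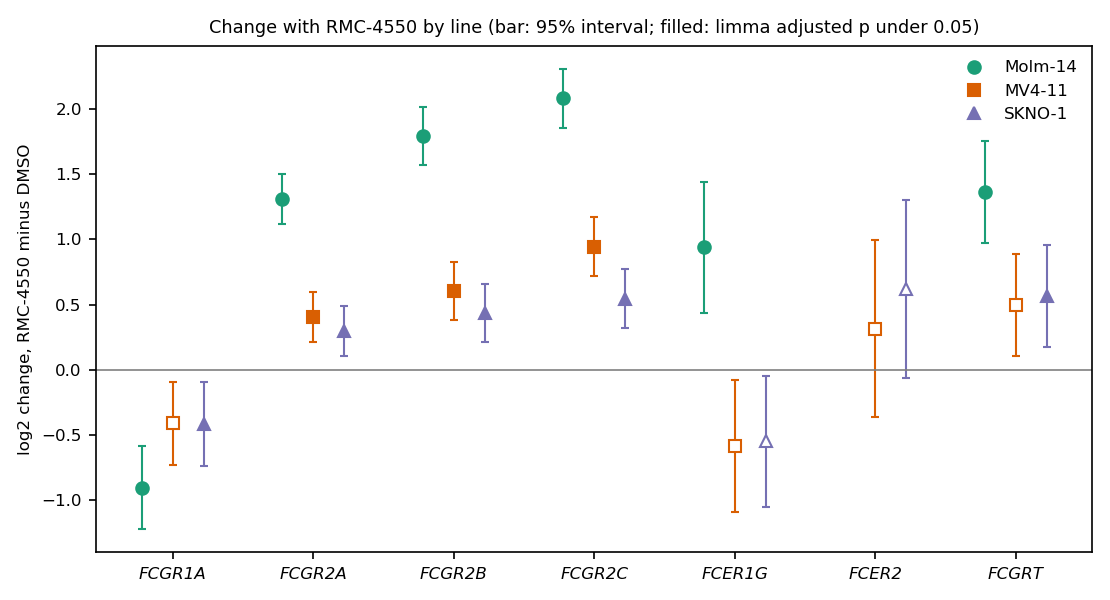
Change with RMC-4550 of 6 Fc receptor genes and the copy FCGR2C on the log2 scale in each line, with 95% intervals from the limma fit and filled symbols where the adjusted p was under 0.05. Changes of FCGR2A, FCGR2B, FCGR2C and FCGRT are largest in Molm-14, and FCER1G is above 0 in Molm-14 and below 0 in the other lines.

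The responses of the lines were also compared with each other. The change in MV4-11 minus that in Molm-14 was called for 4 of 5 genes, FCGR2A (-0.91 ± 0.13), FCGR2B (-1.19 ± 0.15), FCER1G (-1.53 ± 0.34) and FCGRT (-0.87 ± 0.26), beside 19.5% of all genes. The limma adjusted p-values were 0.000301, 0.00012, 0.00675 and 0.0314. The change in SKNO-1 minus that in Molm-14 was called for 3 of 5, FCGR2A (-1.02 ± 0.13), FCGR2B (-1.36 ± 0.15) and FCER1G (-1.49 ± 0.34), beside 10.9%. Here the limma adjusted p-values were 0.000111, 3.14e-05 and 0.00924. These comparisons share the Molm-14 libraries and are not independent. None of 6 genes was called between the responses of SKNO-1 and MV4-11, where 1.66% of all genes were, all 6 had an unadjusted limma p of at least 0.27, and voom weights called 0 of them. The intervals for this difference ran from -0.38 to 0.17 for FCGR2A and from -0.49 to 0.14 for FCGR2B, both chosen for print after their values were seen. The FCGRT difference between MV4-11 and Molm-14 was -0.38 and not called without the 4 libraries of high mitochondrial share (limma adjusted p = 0.0985), and 7 of the 18 fits without 1 library lost it too. Those fits left out MV4-11 DMSO replicate 1 or 3, MV4-11 RMC-4550 replicate 2 or 3, Molm-14 DMSO replicate 2 or 3 or Molm-14 RMC-4550 replicate 2 (adjusted p = 0.0619 to 0.0904). Without the same 4 libraries FCGRT was called between SKNO-1 and Molm-14 (-0.68, adjusted p = 0.000518), as was FCGR1A in both comparisons with Molm-14 (0.70 and 0.63, adjusted p = 0.0171 and 0.00483). FCER1G lost both calls with voom weights (adjusted p = 0.0734 and 0.12).

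Among relatives and partners of these receptors, 19 genes were in the table and 9 to 12 were tested in a line. In Molm-14, 4 rose and 2 fell of 9, in MV4-11 2 rose and 0 fell of 12, and in SKNO-1 4 rose and 1 fell of 12. Of all genes tested 46.7%, 13.9% and 27.1% were called in the same order of lines. The genes called were FCGR2C, FCRLB, B2M, TYROBP, FCGR1BP and FCGR1CP in Molm-14, FCGR2C and TRIM21 in MV4-11, and FCGR2C, FCRLA, TRIM21, TYROBP and FCGR1BP in SKNO-1. The median changes were 0.36, 0.10 and 0.09, beside -0.06, -0.01 and -0.05 over all genes tested. TYROBP (DAP12), an activating adaptor of the same kind as FCER1G, rose in Molm-14 (1.58 ± 0.17, limma adjusted p = 2.93e-06) and SKNO-1 (0.90 ± 0.17, limma adjusted p = 0.00105). Its change of 0.52 in MV4-11 was not called (limma adjusted p = 0.0576). That change was 0.74 and called with the mitochondrial share as a covariate (limma adjusted p = 1.50e-07). It was 0.83 without the 4 libraries of high share, when MV4-11 DMSO was replicate 2 alone. FCRLA, an intracellular member of the Fc receptor-like family, rose in SKNO-1 (1.71 ± 0.16, limma adjusted p = 1.25e-06) and had changes of 0.34 in Molm-14 and 0.50 in MV4-11 that were not called (limma adjusted p = 0.0951 and 0.0515) and that voom weights called (0.0076 and 0.00148). In Molm-14 the adaptor TYROBP and the subunit FCER1G both rose, while in SKNO-1 TYROBP rose and FCER1G was lower without a call.

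The signalling genes that act below Fc receptors numbered 28 in the table and 27 tested in each line. In Molm-14, 12 rose and 5 fell, with a median of 0.04. In MV4-11, 10 rose and 1 fell (median 0.28), and in SKNO-1 10 rose and 0 fell (median 0.22), where no gene of the list was lower at an unadjusted limma p under 0.05. The 17, 11 and 10 calls of 27 stand beside 46.7%, 13.9% and 27.1% of all genes, with medians of -0.06, -0.01 and -0.05. FYN, LCP2, LAT2, CBL and INPP5D were those that fell in Molm-14, and LAT2 the one that fell in MV4-11. Among those that rose in all 3 lines, the adaptor DOK2 changed by 0.40 (Molm-14), 0.48 (MV4-11) and 0.58 (SKNO-1), the order of lines used below too, and the phospholipase PLCG2 by 0.37, 0.45 and 0.33. The exchange factor VAV1 changed by 0.24, 0.28 and 0.27, and PIK3R5, a regulatory subunit of phosphoinositide 3-kinase gamma, by 0.55, 0.52 and 0.39. The limma adjusted p-values of these 4 genes ran up to 0.0452. All 4 lost a call in at least 1 line when a library of that line was left out, and VAV1 lost all 3 with no filter on low values. Without the 4 libraries of high mitochondrial share, the MV4-11 changes of PLCG2 and VAV1 were both 0.19 and not called (limma adjusted p = 0.0547 and 0.0521).

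NCF1 and NCF4 are cytosolic subunits of the NADPH oxidase that makes the oxidative burst. NCF1 rose by 1.99 in Molm-14 (limma adjusted p = 5.64e-08) and 0.53 in MV4-11 (limma adjusted p = 0.0253), a call lost without MV4-11 DMSO replicate 2 or MV4-11 RMC-4550 replicate 1 or 3 (adjusted p = 0.0593 to 0.0932), and NCF4 by 1.04 in Molm-14 (limma adjusted p = 0.000571). NCF4 was not called in MV4-11, and neither gene was called in SKNO-1 (0.17 for NCF1 and 0.38 for NCF4, limma adjusted p = 0.44 and 0.18). Both SKNO-1 changes were called in a fit of the SKNO-1 libraries alone (limma adjusted p = 0.00913 and 0.000298). None of the 4 libraries of high mitochondrial share was from SKNO-1. Leaving them out kept these estimates at 0.17 and 0.38 and lowered the SE, from 0.15 to 0.049 for NCF1 and from 0.20 to 0.059 for NCF4. The phosphatases INPP5D and PTPN6, which the inhibitory motif recruits, were not called higher. INPPL1 (SHIP2), another phosphatase of the list, was called higher in Molm-14 (0.27 ± 0.10, limma adjusted p = 0.0371). It was not called in MV4-11 (-0.0082) or SKNO-1 (-0.00048). INPP5D (SHIP1) fell in Molm-14 (-0.44 ± 0.11, limma adjusted p = 0.00418) and was not called in MV4-11 (-0.28) or SKNO-1 (-0.17), and PTPN6 (SHP1) was not called in any line (-0.15, -0.16 and -0.12). Without the 4 libraries of high mitochondrial share, INPP5D was called lower in all 3 lines (-0.42, -0.46 and -0.17) and PTPN6 in Molm-14 and SKNO-1 (-0.27 and -0.12). INPP5D, INPPL1 and PTPN6 were picked out after their values were seen. NCF1 has near-identical pseudogene copies, so its reads may have been split.

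Of 15 factors and receptors known to act on Fc receptor genes, 13 were tested in Molm-14 and 14 in the other lines. In Molm-14 3 rose and 1 fell, in MV4-11 2 rose and 1 fell, and in SKNO-1 1 rose and 3 fell. The share of all genes called in these lines was 46.7%, 13.9% and 27.1%. The genes named here were chosen after their values were seen. IFNGR2 rose and IFNGR1 fell in Molm-14 and both fell in SKNO-1, and the calls of IFNGR1 in both lines and of IFNGR2 in SKNO-1 were lost under median-ratio scaling. IL10RA, the interleukin-10 receptor chain, rose by 1.31, 0.61 and 0.59 in the same order of lines (limma adjusted p = 5.88e-05, 0.0467 and 0.0353), and its MV4-11 call was lost in 13 of the 18 fits without 1 library and its SKNO-1 call in 6. SPI1 (PU.1) rose in Molm-14 (0.48 ± 0.19, limma adjusted p = 0.0446), a call lost in 11 of those 18 fits, among them the one without Molm-14 RMC-4550 replicate 2 (0.26, adjusted p = 0.24). GATA2 fell in MV4-11 (-0.81 ± 0.13) and SKNO-1 (-0.71 ± 0.13, limma adjusted p = 0.000661 and 0.000968), and its MV4-11 call was lost in a fit of that line alone (adjusted p = 0.0855).

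For each receptor with a mean of at least 5 CPM, the genes whose log2 values followed it best over the 18 libraries were listed among 11028 genes of that level. The libraries fall into 3 lines, each with and without drug, and these values mix both kinds of difference. For FCGR2B, FCER1G and FCER2 the largest log2 differences were between lines. For FCGR1A, FCGR2A and FCGRT the largest was the change with RMC-4550 in Molm-14 (-0.91, 1.31 and 1.37). Between DMSO groups these 3 genes differed by at most 0.50, 0.32 and 0.10. FCGR2B was most like SEMA6A, ADGRD1 and PNCK (Pearson r = 0.99, 0.99 and 0.98). FCGR2A was nearest to PACS2 (r = 0.96), with FGD3 at 0.94 in the third place. FCGR1A was nearest to SRRT, MAK16 and LST1 (0.93, 0.92 and 0.92), FCER1G to IAH1, ODAD3 and COL23A1 (all 0.99), FCER2 to FBXO44, TRGC2 and TMEM233 (all 0.99), and FCGRT to LINC02615, MT2A and SCARF1 (0.96, 0.95 and 0.95). No Fc receptor was among the 3 genes nearest to another.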

How the data were processed

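RNA was measured by RNA-seq in 18 libraries, 3 in each of 6 groups. The authors deposited log2 values per gene in 1 table, identified by Ensembl ID. The low values of each library were whole reads plus 0.5 on this scale (100% of them within 0.02 reads), so reads and CPM were recovered from the table. Per the submitters' processing notes FastQC, STAR, limma and the build GRCh38 were used. The counter, the annotation and the use of strand are not given in the sources used here. Symbols were found for 40069 of 40184 IDs.

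The deposited log2 values were fitted with limma 3.58.1 in R 4.3.3 (lmFit, eBayes with a trend), with 1 coefficient per group over all 18 libraries, so that the groups share 1 estimate of the spread. A gene was tested with at least 1 CPM in at least 3 libraries of the series and in at least 3 of the libraries compared (for responses, of that line). Tests were two-sided and adjusted by Benjamini-Hochberg over the genes tested (13971 for Molm-14, 14739 for MV4-11, 14670 for SKNO-1). Adjusted p under 0.05 counts as a call. An error written ± beside a log2 change is its SE, and intervals are 95% intervals. The fit was tested on simulated data.

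Named genes were all 9 receptors and their copies, the genes of the relatives and signalling lists called one way in each of the 3 lines or called with an absolute log2 change of at least 1, and the 3 genes most like each receptor. The receptors, lists and motifs were chosen with earlier results of these data known. The summed copies were added after the data were seen. FCRL3, FCRL4 and FCGR1B were not matched under these names, and FCAR, FCGR1BP, FCGR1CP and FCGR2C had no entry in the promoter table. Alternatives were other added constants, filters, scalings and models, the mitochondrial share as a covariate, the 4 libraries of high share left out, and each library left out. None of those 4 was from SKNO-1, so without them its estimates stayed and only the shared spread changed. MV4-11 DMSO was then replicate 2 alone. Replicate numbers were not used to pair the libraries in the main fit. Some genes of the lists are not reported here.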

Additional observations from a re-analysis of the deposited data

Results flagged for a closer look

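For 4 receptor genes the change with RMC-4550 differed between lines by a test of the difference itself (limma adjusted p under 0.05). The change in MV4-11 minus that in Molm-14 was -1.19 for FCGR2B, -0.91 for FCGR2A, -1.53 for FCER1G and -0.87 for FCGRT on the log2 scale. The change in SKNO-1 minus that in Molm-14 was -1.36 for FCGR2B, -1.02 for FCGR2A and -1.49 for FCER1G. Molm-14 libraries enter all 7 differences. FCER1G had 16 to 39 reads per Molm-14 library, and its values there rest on that depth.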

How the results depend on the processing

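The 9 receptors gave 47 tested results, each refitted under 30 alternatives. Of these 1410 values 1305 kept direction and side of the threshold, 54 lost a call, 36 gained one and 15 changed sign. The causes were not tested. In MV4-11, 2 receptors were called higher, against 1 in a separate fit of the line and 4 with the mitochondrial share added (the covariate), and 0 lower, against 0 to 2 with 1 library left out. In SKNO-1, 3 were higher, against 1 with no filter and 1 to 3 with a library left out. FCER2, not called in the main fit of that line, was called higher in 5 of the 12 alternatives that were not the loss of 1 library. The covariate was among these 5 (0.58, limma adjusted p = 0.0167). There 1 was lower, against 0 with no filter, median-ratio scaling, quantile normalization or no trend, 2 in a separate fit, with voom weights, with the covariate or without the 4 libraries of high mitochondrial share, and 0 to 2 with 1 library left out. With the replicate number as a block 0 were lower in SKNO-1, since FCGR1A was no longer called (-0.42, limma adjusted p = 0.0758), and no other receptor call changed. The correlation of deviations between libraries of the same number was -0.40 to 0.59, over 0.1 in 3 of 9 pairs. Between libraries of different numbers it was -0.72 to 0.64. In MV4-11 the same-number values were 0.39, 0.59 and -0.40 for replicates 1, 2 and 3. The block was shared over all lines, so pairing within a line was not tested. Between DMSO groups, MV4-11 below Molm-14 went from 0 to 1 with the covariate and to 1 without the 4 libraries, SKNO-1 above MV4-11 from 0 to 1 in both, and SKNO-1 below MV4-11 from 2 to 1 with no filter, median-ratio scaling or the covariate (1 to 3 with a library left out). The response difference of SKNO-1 and Molm-14 went from 3 to 5 with the covariate and to 5 without the 4 libraries.

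Over all genes, calls in MV4-11 were 2045, against 671 (separate fit), 5054 (covariate), 3963 (without the 4 libraries) and 1214 to 3024 with 1 library left out. In SKNO-1 they were 3969, against 8209, 7270 and 7818 in the same order. The response difference gave 2620 calls for MV4-11 and Molm-14, against 1092 in separate fits and 1397 to 5893 with a library left out. For SKNO-1 and Molm-14 it gave 1400, against 3687 (covariate), 3904 (without the 4 libraries) and 923 to 1899, and for SKNO-1 and MV4-11 230, against 1288, 827 and 158 to 862.

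These values changed sign, and none was called before. Adding the mitochondrial share, and leaving out the 4 libraries, gave FCGRT in MV4-11 minus Molm-14 -0.29 and -0.44, and in SKNO-1 minus MV4-11 FCER1G 0.38 and 0.45 and FCER2 0.55 and 0.47. Of the MV4-11 responses FCGR1BP was 0.045 and 0.35, SPI1 0.073 and 0.13, NCF4 0.0029 with the covariate, IFNGR1 -0.025 without the 4 libraries and IFNGR2 0.0063 under median-ratio scaling. With 1 library left out, the range in MV4-11 minus Molm-14 was -0.074 to 0.34 for FCGRT, in SKNO-1 minus Molm-14 -0.033 to 0.066 for FCGR2A, in SKNO-1 minus MV4-11 -0.38 to 0.082 for FCER1G, -0.36 to 0.10 for FCER2 and -0.24 to 0.18 for FCGRT, and in the MV4-11 response -0.54 to 0.014 for FCGR1BP. A filter of a mean of 5 CPM leaves out the low copies and gives no value for them.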
